A study of Mus musculus with 6 samples.

Results

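The RNF and TRIM genes described here are the rows whose symbol starts with Rnf or Trim followed by a digit, with Rnf2, Trim25 and Trim30a left out. The rule used names only and no measured value. It found 93 of the 13185 gene rows, 58 named Rnf and 35 named Trim. Expression was measured in leukaemic mouse T cells (T-cell acute lymphoblastic leukaemia, T-ALL) described as Notch1-driven. For every library they were grown with IL-2 (100 U/mL) on a surface coated with antibody to CD3 (2.5 ug/mL). Panobinostat, an inhibitor of histone deacetylases, was given at 25 nM for 2 h in 3 libraries, and the other 3 were untreated controls. Libraries were made with the QuantSeq 3' mRNA kit, which reads the polyadenylated end of each transcript. Nothing in the labels tells whether libraries of 1 group are separate cultures, or how many animals, tumours or clones the cells came from. The p-values therefore cover the spread among these libraries alone, which may be technical.

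Ubiquitin is a small protein that is attached to other proteins to send them to the proteasome or to change what they bind. An E1 enzyme activates it, an E2 enzyme carries it, and a ligase (E3) picks the substrate. The RING domain, which gives RNF genes their name, holds the E2 against the substrate. TRIM proteins carry a tripartite motif of a RING, B-box zinc fingers and a coiled coil, and many act in chromatin or in antiviral defence. An RNF or TRIM name is not proof of a ligase, since TRIM14 and TRIM44 lack the RING. In T cells several members are known as regulators of receptor signalling, among them RNF125, first described as a ligase of T cell activation, and RNF128 (GRAIL), known from T cell anergy.

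The deposited values were log2 CPM (counts per 1000000 reads), and from the steps between tied low values each library was estimated to hold between 6010000 and 7740000 reads. A gene was tested where its mean log2 CPM over the 6 libraries was at least 0. The values looked quantile normalized between libraries, so that a shift of all genes in one direction could not be seen in them. Of 10 T cell markers 9 were in the table, Trac being the one without a row, and their summed level was 1669 to 1790 CPM in treated and 2253 to 2415 CPM in untreated libraries. Markers of other cells were also present: 5 of 5 erythroid markers at 4610 to 4782 CPM in treated and 4668 to 5233 CPM in untreated libraries, 6 of 6 myeloid markers at 1014 to 1110 against 1241 to 1404 CPM, and 4 of 5 B cell markers at 37.1 to 37.7 against 45.4 to 53.2 CPM. Of 5 stromal markers only Pdgfrb had a row. The part of these other cells in the results below was not tested, and in bulk RNA fewer cells of a type and less RNA per cell cannot be told apart.

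Members moved in both directions after 2 h of panobinostat. Of the 89 members tested, 16 rose and 22 fell at an adjusted p below 0.05 (limma, with Benjamini-Hochberg adjustment over all 12554 tested genes), a share of 42.7% against 38.3% of all tested genes. By direction, 19.2% of all tested genes rose and 19% fell. The share of members called was thus close to the background of a broad response. The members' median log2 fold change was 0.0082, and that of all tested genes was -0.0052. Their median absolute log2 fold change was 0.38, against 0.40 over all tested genes. Among RNF genes 11 rose and 12 fell of 57 tested, and among TRIM genes 5 rose and 10 fell of 32 tested, a difference between the names that was not tested. Called changes of at least 2-fold were few. Rnf225, Rnf181 and Rnf122 were called with such a rise, as were 5.12% of all tested genes. Rnf125, Trim65 and Rnf170 were called with such a fall, as were 5.15% of all tested genes. Rnf24 (1.09 on the log2 scale), Rnf135 (-1.19) and Trim34a (-1.11) also moved at least 2-fold and were not called. Rnf225 reached the level for testing only through the treated libraries, as described below.

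**Figure D1:**
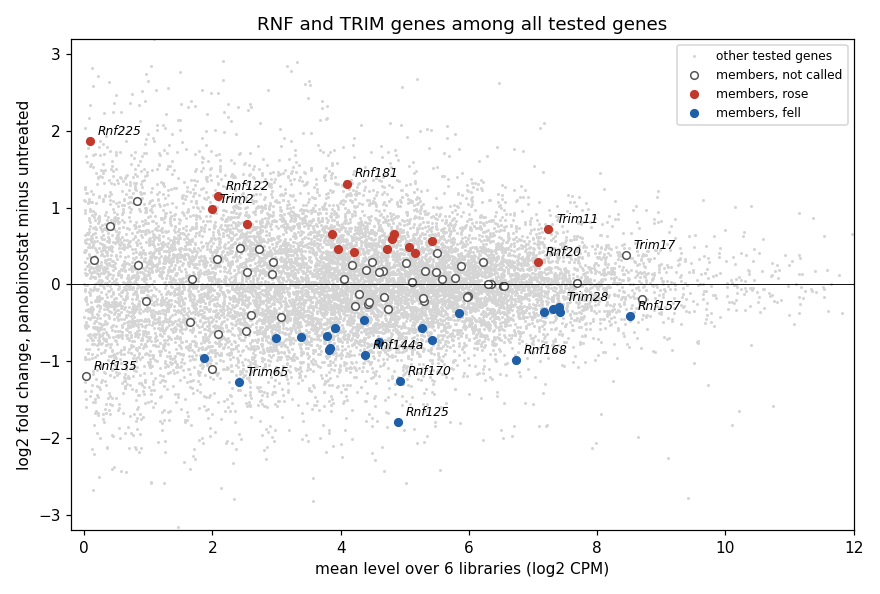
Log2 fold change (panobinostat minus untreated) against the mean level in log2 CPM over the 6 libraries, with the 89 tested members over the other tested genes in grey. The axes are cut, so that other genes beyond them are not shown (log2 fold changes of all tested genes ran from -6.37 to 3.69). Members that rose (red, 16) and fell (blue, 22) lie on both sides of 0 within the cloud of other genes, with Rnf225 highest at 1.86 and Rnf125 lowest at -1.80. Rnf225 reached the level for testing only through the treated libraries.

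In all 38 called members the groups were free of overlap, as they were in 17 of the 51 members that were tested and not called. Over all tested members, called or not, 61.8% had groups without overlap, against 51.4% of all tested genes. Called changes ran down to 0.29 on the log2 scale. Precision depended on the level: the median standard error (SE) of the log2 fold change was 0.20 in members below their median level and 0.11 in the rest. Of the 38 called members 21 (7 that rose and 14 that fell) also passed in each of the 6 leave-one-out fits, in which 1 library is dropped, and in none of the 38 did the direction turn. Without panobinostat library 3 the rises numbered 7 in place of 16, and without untreated library 3 they numbered 10. Untreated library 1 was the untreated library nearest to the treated mean in 19 of the 38, against 10 and 9 for untreated libraries 2 and 3.

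Among called members with a mean of at least 2 log2 CPM, the largest rise and the largest fall lay in one group, that of RNF114, RNF125 and RNF166 with the cytosolic quality control ligases RNF115, RNF126 and RNF181. The role groups were fixed with earlier results of these data known, so that both lie in one group is no finding. Rnf138, a relative of Rnf125, was counted with the histone and DNA damage ligases. In the RNF114 group 3 rose and 1 fell of 6 tested (median log2 fold change 0.37), or 66.7% called against 38.3% of all tested genes. Rnf181, a small RING ligase (chromosome 6, 72359714 to 72366956, mm10), stood at 4.86, 4.70 and 4.68 log2 CPM in treated libraries 1 to 3 and at 3.47, 3.24 and 3.59 in untreated libraries 1 to 3. Every treated library lay more than 1 log2 unit above every untreated library, and the gene rose 2.49-fold (log2 fold change 1.31, SE 0.13, limma adjusted p = 0.000606). Its annotated 3' end overlaps Tmem150a on the other strand, a gene with a mean of 0.81 log2 CPM in treated and 0.30 in untreated libraries. An annotated 3' end that overlaps another gene was found for 26 of the 93 members, 10 of them called.

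Rnf125 (chromosome 18, 20944625 to 20983862), which encodes a membrane-anchored ligase that promotes T cell activation and limits RIG-I signalling, went the other way. It was at 4.14, 4.05 and 3.79 log2 CPM in treated and at 5.54, 6.01 and 5.82 in untreated libraries. The gap between the groups was far wider than the spread within either, and Rnf125 fell by 1.80 on the log2 scale (SE 0.15, limma adjusted p = 0.000329). RNF114, RNF125, RNF138 and RNF166 form a small family of ligases that pair a RING with further zinc fingers and a ubiquitin-binding motif. The 3 relatives of Rnf125 all rose. This set of 4 was not one of the role groups and was put together with the values known. Of all tested genes 38.3% were called. Rnf114 was at 5.17, 5.12 and 5.20 log2 CPM in treated against 4.69, 4.35 and 4.49 in untreated libraries (a log2 change of 0.66, SE 0.11, limma adjusted p = 0.00415). Rnf166 was at 5.81, 5.66 and 5.63 against 5.01, 5.22 and 5.17 (0.56, SE 0.10, limma adjusted p = 0.00441). Rnf138, whose product acts in DNA end resection, was at 4.12, 4.17 and 4.32 against 3.79, 3.47 and 3.36 (0.66, SE 0.15, limma adjusted p = 0.0115). None of the 4 had overlapping groups, nor did 51.4% of all tested genes. Rnf138 and Rnf125 are neighbours on chromosome 18, on the same strand, and moved in opposite directions. The annotated 3' end of Rnf166 lies in Gm20388 on the other strand, which stood at -0.15 ± 0.14 (log2 fold change ± SE). Of the remaining quality control ligases, Rnf115 and Rnf126 stood at 0.17 ± 0.15 and 0.16 ± 0.12 and did not pass.

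**Figure D2:**
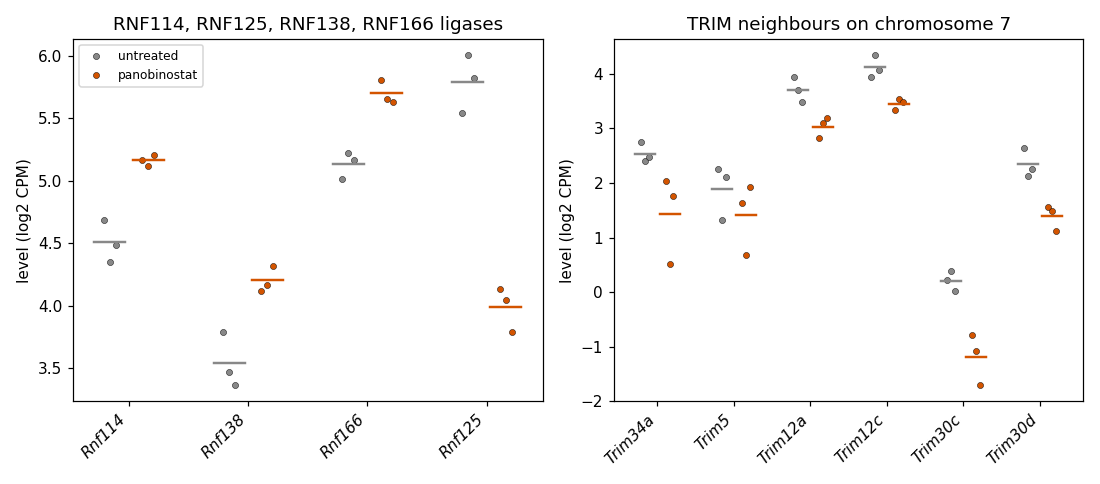
Level in log2 CPM of each library, untreated in grey and panobinostat in orange, with a bar at each group mean. The genes on the left were put together with their values known. On the left Rnf114, Rnf138 and Rnf166 are higher and Rnf125 lower in every treated library; on the right 6 neighbouring TRIM genes of chromosome 7 have lower treated means, with overlap in Trim5.

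The letters before the start sites are shown for 3 of the rises and for Rnf168, the well-expressed fall described next, because these genes were among the clearer changes and have an entry in RefSeq's promoter table (GRCm38.p6, the same assembly as mm10). Each line gives the 100 bases upstream of the start site nearest to the annotated 5' end, read 5′ to 3′ on the gene's strand, and capitals mark matches to the motifs named after them. The 3' reads do not show which start site these cells used.
Rnf114, chr2:167492545-167492644, plus strand: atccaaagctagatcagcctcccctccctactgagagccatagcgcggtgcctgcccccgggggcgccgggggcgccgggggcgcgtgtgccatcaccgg
Rnf166, chr8:122476075-122476174, minus strand: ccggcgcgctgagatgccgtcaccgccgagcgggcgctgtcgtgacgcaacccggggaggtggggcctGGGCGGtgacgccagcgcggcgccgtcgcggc
Rnf181, chr6:72366973-72367072, minus strand: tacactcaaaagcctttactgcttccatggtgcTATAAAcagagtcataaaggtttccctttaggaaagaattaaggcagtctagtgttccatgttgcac
Rnf168, chr16:32277361-32277460, plus strand: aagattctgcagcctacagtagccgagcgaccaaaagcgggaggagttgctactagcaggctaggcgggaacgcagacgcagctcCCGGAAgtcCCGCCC

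The motifs searched on both strands were the GC box GGGCGG, the CCAAT box CCAAT, the TATA box TATAAA, the E-box CACGTG and the ETS core TTCCGG, and matches to different motifs can share bases. The Rnf166 stretch held 19 CpG pairs and 1 GC box, that of Rnf114 10 CpG pairs and none of these motifs, that of Rnf168 8 CpG pairs with 1 GC box and 1 ETS core, and that of Rnf181 0 CpG pairs and 1 TATA box. In the 250 bases upstream, a GC box occurred in 59.2% of the 71 members with an entry and in 33% of all 27025 promoters of the table, which include non-coding genes. It occurred in 5 of 12 members that rose, 7 of 17 that fell and 29 of 38 that were tested and not called. A TATA box occurred in 3, 2 and 2 of these. The counts are small, and a match is a description of letters and not a binding site.

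Ligases of histones and of DNA damage signalling divided, with 3 rises and 2 falls of 9 tested (median log2 fold change 0.08). That is 55.6% called against 38.3% of all tested genes. RNF8 starts the ubiquitin signal at a DNA break and RNF168 extends it on histone H2A, while RNF169 reads that mark. Rnf168 (chromosome 16, 32277459 to 32301434) was at 6.21, 6.37 and 6.15 log2 CPM in treated and at 7.18, 7.36 and 7.17 in untreated libraries. The groups were well apart, and Rnf168 fell by 0.99 on the log2 scale (SE 0.09, limma adjusted p = 0.000452). Rnf169 fell as well, from 5.52, 6.08 and 5.79 to 5.22, 5.03 and 4.94 log2 CPM (a log2 change of -0.73, SE 0.15, limma adjusted p = 0.0082). Rnf8, upstream of both, was at 6.46, 6.27 and 6.31 in treated against 6.31, 6.41 and 6.31 log2 CPM in untreated libraries. Its log2 fold change of 0.0035 ± 0.085 (SE) changed sign in 3 of the 6 leave-one-out fits.

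Rnf20 and Rnf40 encode the partners of the ligase that puts ubiquitin on histone H2B, a mark of transcribed genes. Rnf20 was at 7.24, 7.21 and 7.20 log2 CPM in treated and at 6.94, 6.90 and 6.93 in untreated libraries, a small rise with very little spread (0.29, SE 0.07, limma adjusted p = 0.0114). For Rnf40 the libraries overlapped, and its log2 fold change was 0.08 ± 0.10. The E2 enzymes that work with this ligase are encoded by Ube2a and Ube2b. Ube2b rose by 0.68 ± 0.10 and Ube2a, named here after its value was seen, by 0.29 ± 0.09 (limma adjusted p = 0.0409). Rnf4, whose product ubiquitinates SUMO-modified proteins, was at 5.49, 5.13 and 5.29 in treated against 5.02, 4.69 and 4.73 log2 CPM in untreated libraries (0.49, SE 0.14, limma adjusted p = 0.0245). It no longer passed without panobinostat library 1 or 3 or untreated library 2 or 3, at 0.40 to 0.50. Rnf111, the other ligase of this kind, stood at 0.17 ± 0.13.

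The TIF1 proteins TRIM24, TRIM28 and TRIM33 are transcription cofactors that bind chromatin, TRIM28 (KAP1) being the corepressor of KRAB zinc finger proteins. Of the 3 tested, 2 fell (66.7% called against 38.3% of all tested genes). Trim24 was at 4.18, 4.08 and 4.15 log2 CPM in treated and at 4.66, 4.68 and 4.48 in untreated libraries (-0.47, SE 0.11, limma adjusted p = 0.013). Trim28 was at 7.27, 7.28 and 7.23 against 7.49, 7.40 and 7.75, with an adjusted p just under the threshold (-0.29, SE 0.10, limma adjusted p = 0.0492). Leaving out any treated library or untreated library 3 ended the Trim28 call (-0.30 to -0.19), as did testing every row or dropping the mean-variance trend. Trim33 stood at 0.06 ± 0.09 with overlapping groups.

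Among innate immune and antiviral ligases 2 rose and 5 fell of 12 tested, or 58.3% called against 38.3% of all tested genes (median log2 fold change -0.66). Of the 5 falls 3 were those of Trim12a, Trim12c and Trim30d, related genes in one cluster on chromosome 7 that are not separate evidence. Trim65, a ligase of the RNA sensor MDA5 (chromosome 11, 116121846 to 116131128), was at 2.25, 1.57 and 1.49 log2 CPM in treated and at 2.86, 3.13 and 3.16 in untreated libraries. It fell by 1.28 on the log2 scale (SE 0.25, limma adjusted p = 0.00614) from a low level. The annotated 3' end of Trim65 overlaps Trim47, which had no row. Trim56, which acts in DNA and RNA sensing, moved by less at a high level, from 7.43, 7.38 and 7.57 to 7.15, 7.17 and 7.12 log2 CPM (-0.31, SE 0.08, limma adjusted p = 0.0148). It did not pass once panobinostat library 3 (-0.30) or untreated library 3 (-0.26) was dropped. The rises were those of Rnf213, a very large ligase with an ATPase core, and Trim26. Rnf213 was at 4.996, 4.98 and 4.88 in treated against 4.59, 4.25 and 4.63 log2 CPM in untreated libraries (0.46, SE 0.13, limma adjusted p = 0.0252), which no longer passed once any 1 treated library, or untreated library 2, was dropped (0.34 to 0.50). Its annotated 3' end overlaps A930037H05Rik, which had no row. Trim26 rose by 0.46 ± 0.14, and its call was kept among the leave-one-out fits only without panobinostat library 1 (0.36 to 0.47 in the other 5). Trim21, the cytosolic antibody receptor, was at 2.04, 2.05 and 1.19 against 2.62, 2.28 and 2.31 log2 CPM. Its groups did not overlap, yet the fall of the mean did not pass (-0.64 ± 0.28, limma adjusted p = 0.111).

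TRIM genes of this kind lie side by side on chromosome 7, and 6 members (Trim34a, Trim5, Trim12a, Trim12c, Trim30c and Trim30d) fall within 104244457 to 104507849 with gaps of at most 100 kb. Every one had a lower mean in treated libraries. Trim12c was at 3.33, 3.54 and 3.49 in treated against 3.95, 4.34 and 4.07 log2 CPM in untreated libraries (-0.67, SE 0.15, limma adjusted p = 0.00998). Trim12a was at 2.83, 3.09 and 3.18 against 3.95, 3.70 and 3.49 (-0.68, SE 0.18, limma adjusted p = 0.0188). Trim30d was at 1.57, 1.48 and 1.12 against 2.65, 2.13 and 2.26 (-0.96, SE 0.24, limma adjusted p = 0.0176). These 3 were the calls of the cluster, and the groups of none overlapped. The Trim12a call was lost without panobinostat library 1 (-0.58) and the Trim30d call without panobinostat library 3 (-0.82). Trim34a stood at -1.11 ± 0.39 (limma adjusted p = 0.057) and Trim5 at -0.49 ± 0.40. Trim34a did pass with a pseudocount of 1 CPM, robust estimation, sample weights or the replicate block, or without panobinostat library 1 (-1.41). Trim30c was too low to test, at an estimated 2 to 3 reads in treated and 7 to 9 in untreated libraries. These genes are related, how alike their sequences are was not measured, and how reads were shared among them is unknown. The summed T cell, myeloid and B cell markers were all lower in the same treated libraries, as given above. The part of any cell type in these values was not tested.

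On chromosome 17 a pair of neighbours went apart. Trim26 rose beside Trim10, whose product is known from red cell maturation. Trim10 was at 2.40, 2.72 and 2.80 in treated against 3.04, 3.30 and 3.68 log2 CPM in untreated libraries (-0.70, SE 0.21, limma adjusted p = 0.0323). Among the leave-one-out fits it passed only without untreated library 1, and lay at -0.78 to -0.54 in the other 5. The erythroid marker Alas2 fell in the same libraries (-0.41 ± 0.12) and Hbb-bs rose (0.35 ± 0.10), and the part of erythroid cells in the Trim10 value was not tested. Trim41 rose on chromosome 11 next to Trim7, which stood at -0.60 ± 0.22 and did not pass. Trim7 did pass with sample weights or without untreated library 2 (-0.77).

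**Figure D3:**
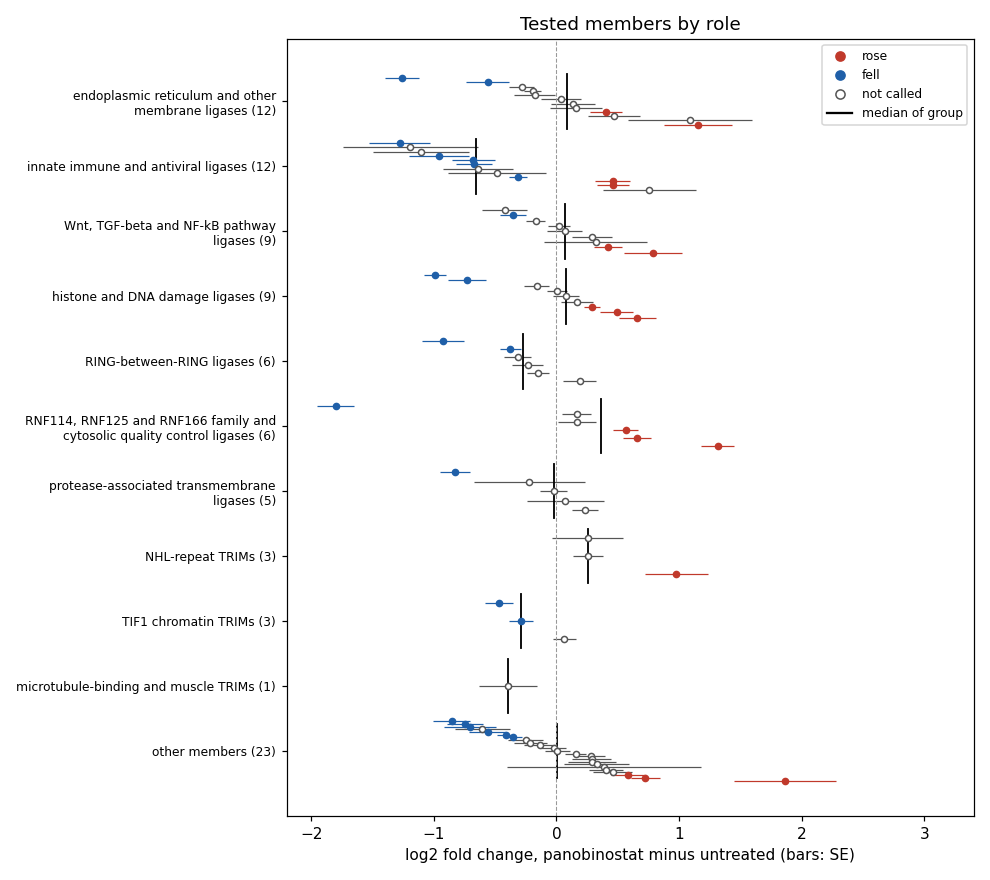
Log2 fold change with its SE for each tested member, in rows by role with the number tested in parentheses and a black line at each row's median. Among innate immune ligases 5 fell and 2 rose, 3 of the falls being related genes in one cluster on chromosome 7 (Trim12a, Trim12c and Trim30d), and the RNF114 group holds both the lowest value of all rows, -1.80, and 3 rises.

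Ligases anchored in the endoplasmic reticulum and other membranes gave 2 rises and 2 falls of 12 tested (median log2 fold change 0.08). The share called was 33.3%, against 38.3% of all tested genes. RNF170 marks activated inositol trisphosphate receptors, the calcium channels of the endoplasmic reticulum, for degradation. Rnf170 (chromosome 8, 26119368 to 26151790) was at 4.38, 4.48 and 4.04 log2 CPM in treated and at 5.47, 5.70 and 5.50 in untreated libraries. It fell by 1.26 on the log2 scale, with about 1 log2 unit between the nearest libraries of the groups (SE 0.14, limma adjusted p = 0.000808). The annotated 3' end of Rnf170 overlaps Gm45692, which had no row. Rnf122 (chromosome 8, 31111820 to 31131482) rose from low values of 1.85, 0.93 and 1.77 to 2.69, 2.72 and 2.61 log2 CPM (1.16, SE 0.28, limma adjusted p = 0.0144). The other calls of this group were a fall of Rnf26 (-0.56 ± 0.18) and a rise of Trim13 (0.40 ± 0.13), neither of which passed without panobinostat library 2 or 3 or untreated library 2 or 3 (-0.58 to -0.39 and 0.28 to 0.42) or without the mean-variance trend. The annotated 3' end of Rnf26 overlaps Gm49380, and that of Trim13 overlaps Dleu2. Rnf139 and Rnf145, whose products act on sterol metabolism, stood at -0.28 ± 0.10 and -0.20 ± 0.07. In both every treated library lay below every untreated one, and neither passed (limma adjusted p = 0.0645 and 0.0569). Rnf139 did pass with a mean log2 of at least 2, without the mean-variance trend or with sample weights. Rnf145 did so with that filter, with sample weights or without untreated library 2 (-0.24).

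Ligases with a protease-associated domain and a single membrane span had 1 call of 5 tested (20%, against 38.3% of all tested genes). The called gene was Rnf215, which fell. It was at 3.33, 3.55 and 3.37 in treated against 4.22, 4.23 and 4.29 log2 CPM in untreated libraries (-0.83, SE 0.12, limma adjusted p = 0.00225). Its annotated 3' end overlaps Ccdc157 on the other strand, which stood at 0.37 ± 0.26. Rnf128, the anergy ligase, was barely detected, at 1.18, 1.04 and 0.35 against 0.21, 1.25 and 1.77 log2 CPM, and its log2 fold change of -0.22 had an SE of 0.45.

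RING-between-RING ligases pass ubiquitin through a catalytic cysteine of their own. Of 6 tested, 2 fell and none rose (median log2 fold change -0.28; 33.3% called against 38.3% of all tested genes). With limma 3 of the 6 had an unadjusted p under 0.05, as did 6062 of the 12554 tested genes. Rnf144a, known to act on DNA-dependent protein kinase, was at 3.63, 3.84 and 4.27 in treated against 4.84, 4.74 and 4.94 log2 CPM in untreated libraries (-0.93, SE 0.17, limma adjusted p = 0.0052). Rnf19a fell by less, from 5.997, 5.98 and 6.13 to 5.70, 5.60 and 5.67 (-0.38, SE 0.09, limma adjusted p = 0.0112). Rnf31 encodes HOIP, the catalytic subunit of the complex that builds linear ubiquitin chains in NF-kB signalling. It stood at 0.19 ± 0.13 with overlapping groups. The genes of its partners, Rbck1 (-0.32 ± 0.09, limma adjusted p = 0.0319) and Sharpin (-0.51 ± 0.15, limma adjusted p = 0.0291), fell. They are named here after their values were seen. The annotated 3' end of Rnf31 lies inside Irf9, which fell by 0.82 on the log2 scale, so reads at that place cannot be told apart without the counting rules.

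Members grouped here under the Wnt, TGF-beta and NF-kB pathways gave 2 rises and 1 fall of 9 tested (median log2 fold change 0.07). The share called was 33.3%, against 38.3% of all tested genes. Rnf41, a ligase of the growth factor receptor ERBB3, was at 2.77, 3.18 and 2.87 in treated against 1.901, 2.57 and 1.99 log2 CPM in untreated libraries (0.79, SE 0.24, limma adjusted p = 0.0322), which among the leave-one-out fits passed only without untreated library 2 (0.66 to 0.88 in the other 5). Rnf11, part of the A20 complex that limits NF-kB, was at 4.41, 4.36 and 4.48 against 4.05, 4.07 and 3.88 (0.42, SE 0.11, limma adjusted p = 0.0234). Dropping any 1 treated library, or untreated library 3, ended the Rnf11 call (0.36 to 0.44). The fall was that of Rnf220 (-0.35 ± 0.11), which among the leave-one-out fits passed only without untreated library 1 (-0.38 to -0.27 in the other 5) and did not pass without the mean-variance trend. Trim27 stood at -0.17 ± 0.08 without overlap between the groups and did not pass (limma adjusted p = 0.122).

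Of the NHL-repeat TRIM genes, best known from neurons, Trim2 was at 2.58, 2.33 and 2.55 in treated against 1.96, 1.32 and 1.24 log2 CPM in untreated libraries (0.98, SE 0.25, limma adjusted p = 0.0189). Its rise no longer passed without panobinostat library 1 or 3 or untreated library 2 or 3 (0.84 to 0.95), and Trim3 and Trim32 each stood at 0.25 and did not pass. Trim36, the one tested gene of the microtubule-binding class, stood at -0.40 ± 0.24.

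**Figure D4:**
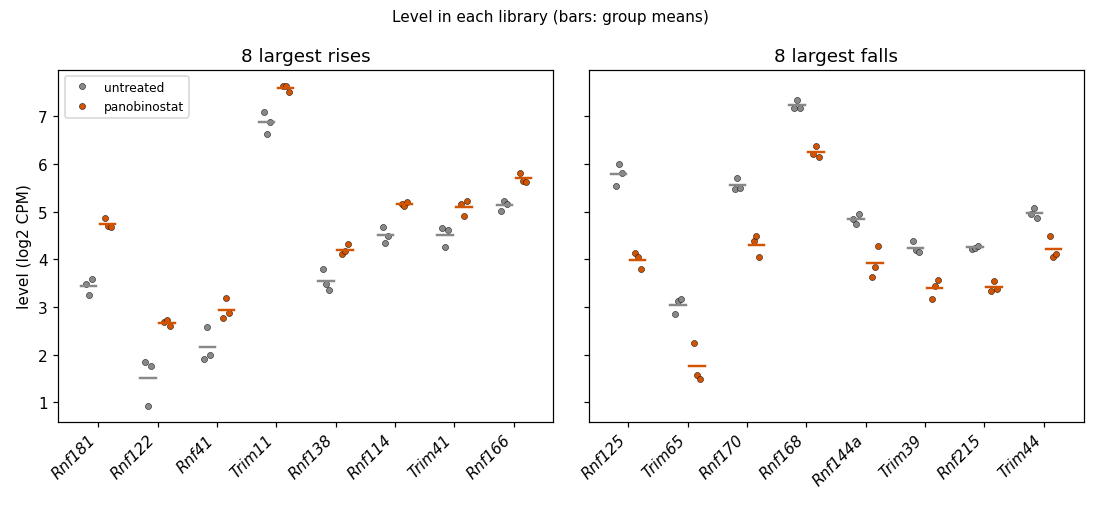
Level in log2 CPM of each library for the 8 largest rises and 8 largest falls among called members with a mean of at least 2 log2 CPM and no overlap between groups, untreated in grey and panobinostat in orange, with a bar at each mean. In each gene all 3 treated libraries lie on one side of all 3 untreated libraries, by the widest gap in Rnf125.

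The 23 tested members outside these roles gave 3 rises and 6 falls (39.1% called against 38.3% of all tested genes). Trim11 (chromosome 11, 58978093 to 58991458), which encodes a ligase with a B30.2 domain, was at 7.65, 7.64 and 7.52 in treated against 7.10, 6.64 and 6.89 log2 CPM in untreated libraries (0.72, SE 0.12, limma adjusted p = 0.00323). Trim41, of the same domain layout, was at 5.15, 4.92 and 5.22 against 4.66, 4.26 and 4.61 (0.59, SE 0.14, limma adjusted p = 0.0147). Its annotated 3' end overlaps the very abundant Rack1 (11.26 log2 CPM in treated and 11.13 in untreated libraries) on the other strand, and the strand setting of the counting was not given. Without panobinostat library 3 the Trim41 call was lost (0.53).

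The third rise was that of Rnf225, the highest fold change among tested members. Rnf225 (chromosome 7, 12927416 to 12931072) was at 0.93, 0.67 and 1.49 in treated against -0.85, -1.22 and -0.43 log2 CPM in untreated libraries (1.86, SE 0.42, limma adjusted p = 0.0105). That is an estimated 11, 11 and 21 reads against 4, 3 and 5 reads, so each value rests on few reads, and without panobinostat library 3 the call was lost (1.63). The gene reached the level for testing only through the treated libraries, where it is high (a mean of 1.03 against -0.83 log2 CPM), so a gene at its untreated level in both groups would not have been tested.

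Among the falls of this class, Trim39, reported to restrain the anaphase-promoting complex, was at 3.17, 3.44 and 3.56 in treated against 4.39, 4.19 and 4.16 log2 CPM in untreated libraries (-0.86, SE 0.15, limma adjusted p = 0.0041). Trim44, which lacks the RING, was at 4.50, 4.05 and 4.11 against 4.95, 5.07 and 4.87 (-0.75, SE 0.14, limma adjusted p = 0.00606). The groups of both genes were clear of each other. Rnf157 (-0.41 ± 0.07) and Rnf6 (-0.36 ± 0.08) fell from high levels with little spread, and Rnf123 (-0.56 ± 0.15) and Trim10 made up the 6. Rnf123 no longer passed without panobinostat library 2 or 3 or untreated library 3 (-0.58 to -0.43), and its annotated 3' end overlaps Gmppb.

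Trim17 had the widest spread within the untreated group of any tested member. It was at 8.62, 8.73 and 8.58 log2 CPM in treated libraries and at 9.26, 6.06 and 9.45 in untreated libraries, so that untreated library 2 lay more than 3 log2 units under the other untreated libraries. With all libraries its log2 fold change was 0.38 ± 0.79, and without untreated library 2 it was -0.71 and passed (limma adjusted p = 0.00272). The RNF and TRIM genes beside it within 100 kb showed no drop of that size: in the untreated libraries Trim11 was at the values above and Rnf187 at 7.50, 7.82 and 7.70 log2 CPM.

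Members below the level for testing numbered 4. By estimated reads per library, Trim62 had 8 to 14 in treated and 3 to 4 in untreated libraries, Rnf43, a receptor-removing ligase of Wnt signalling, 1 to 6 against 6 to 13, Trim68 1 to 9 against 2 to 14, and Trim30c is given above. With every row tested, Trim62 alone of the 4 passed (log2 fold change 1.78, SE 0.48, limma adjusted p = 0.0217), on these few reads. The others then stood at -1.18 ± 0.72 (Rnf43), -1.40 ± 0.49 (Trim30c) and -0.95 ± 1.06 (Trim68). Among the 51 tested members that did not pass, log2 fold changes ran from -1.19 (Rnf135) to 1.09 (Rnf24), both of them at low levels. Rnf135 reached the level for testing only through the untreated libraries (a mean of 0.63, against -0.56 log2 CPM in treated libraries).

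At the other steps of the pathway the share called was close to that of all genes. Of 36 ubiquitin, E1 and E2 genes, all tested, 10 rose and 5 fell (median log2 fold change 0.12), a share called of 41.7% against the 38.3% of all tested genes. The E2 gene Ube2h was at 7.89, 7.73 and 7.88 log2 CPM in treated and at 6.95, 6.86 and 7.06 in untreated libraries (0.88, SE 0.08, limma adjusted p = 0.000493). The E2 gene Ube2e3 went the other way, from 7.16, 7.52 and 7.41 to 6.40, 6.68 and 6.45 (-0.86, SE 0.12, limma adjusted p = 0.00177). Of 23 ubiquitin ligases and partners with other names that act in T cells, 22 were tested (Mid2 had no row), of which 2 rose and 6 fell (36.4% called). The antigen receptor ligase gene Cbl fell by 0.56 ± 0.10, Dtx3l, a partner of PARP9, by 0.81 ± 0.09 and the caspase inhibitor gene Xiap by 0.71 ± 0.13. Peli1 rose by 0.49 ± 0.14 (limma adjusted p = 0.0259). Depending on the library left out, this list had between 3 and 10 calls in place of 8, and the lowest count came without panobinostat library 3 or untreated library 3.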

How the data were processed

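Reads were handled with HISAT2 2.1.0, cutadapt 1.9, limma and featureCounts (Subread 1.5.0) on build mm10, per the submitters' processing notes. Annotation, filters and strand setting are not given in the sources used here. Values come from a single table of log2 values the authors deposited. That these are quantile normalized log2 CPM was inferred: their powers of 2 summed to 994114 to 994182 per library. Columns were matched to samples by the number after the letter S, and library numbers follow accession order. For the comparison, limma 3.58.1 under R 4.3.3 (lmFit and trended eBayes) was run on the 12554 genes whose mean log2 was 0 or more, with p-values adjusted by Benjamini-Hochberg and called below 0.05; 631 rows were not tested. It was tested on simulated data. Values after ± are SE. Reads per library were estimated from the first 200 steps between distinct values; intervals from reads would cover counting error only. Positions came from GENCODE M21 (all 93 members matched). Python 3.11.15, pandas 2.3.3 and matplotlib 3.10.9 were used. The named members were the 8 largest rises and 8 largest falls with a mean log2 of at least 2 and no overlap, the smallest adjusted p of each role, and Rnf20, Rnf40, Rnf8, Rnf168, Rnf4, Rnf31, Rnf128, Rnf213, Trim21, Trim24, Trim27, Trim28 and Trim33; from the other lists, up to 4 by adjusted p, of which 1 is not reported here. Other members were named after their values were seen. The members, roles and lists were chosen with earlier results of these data known. Alternatives were other filters, a pseudocount, other centring and spread models, sample weights, a stricter threshold, a block by library number and each library left out.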

Additional observations from a re-analysis of the deposited data

How the results depend on the processing

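The members' counts of 16 rises and 22 falls stayed within 1.5 times of these values under no filter, a mean log2 of at least 2, a pseudocount of 1 CPM, median or trimmed mean centring, no mean-variance trend, robust estimation and sample weights. At an adjusted p below 0.01 they became 4 and 12, and over all tested genes 1240 rises and 1273 falls in place of 2416 and 2390. At that threshold the calls were 9 of the ubiquitin, E1 and E2 list (15) and 3 of the other ligases (8); without a mean-variance trend they were 9 and 4. With 1 library left out, members' rises ranged from 7 to 18 and falls from 15 to 22, rises over all tested genes from 1587 to 2664 and falls from 1636 to 2562, calls in the ubiquitin, E1 and E2 list from 9 to 17 and in the other ligases from 3 to 10; the cause was not tested, and fewer libraries give less power. Rnf8 ranged from -0.052 to 0.042 in those fits and turned below 0 without panobinostat library 1 or untreated library 1 or 3. Rnf128 ranged from -0.65 to 0.12 and turned above 0 without panobinostat library 3 (0.03) or untreated library 3; neither was called. Library numbers do not pair the samples in the labels; same-numbered libraries' deviations correlated at -0.04, 0.10 and -0.01, and 2 of 6 correlated best with their own number. With the replicate block, members' counts were 13 and 20, all genes' 2079 and 2069, the ubiquitin, E1 and E2 list had 11 calls and the other ligases 5; members' calls not shared were Rnf11, Rnf26, Rnf220, Trim13, Trim26 and Trim28, and Trim34a passed (adjusted p = 0.0441). For single named genes, 571 values over all alternatives kept call and direction, 46 lost the call and 5 turned. Depth limits the low members, whose median SE was wider.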
